A study of Homo sapiens with 12 samples.

Results

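The genes described are the zinc-finger genes numbered ZNF400 to ZNF899, followed through a sorting experiment on the lung adenocarcinoma line A549, an established human cell line. A gene belongs to the set where a probe set of the array names it alone and its symbol lies between ZNF400 and ZNF899, with an optional final letter. Of 277 such genes, 187 had a best probe set whose mean signal over the 12 arrays lay above the 40th percentile of all non-control probe sets, 5.39 on the log2 scale. These 187 are described here, of 14649 genes tested in all, and the other 90 fell below that level. They were chosen by their symbol and by the mean signal over all arrays, with earlier results of these data known. Just inside the limit lay ZNF785 (5.40), ZNF624 (5.40) and ZNF594 (5.39), and just outside it ZNF536 (5.38), ZNF556 (5.33) and ZNF497 (5.31).

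Cells had been sorted by a Hoechst dye into side population (SP) cells, which export it, and the remaining non-SP cells. There were 4 groups of 3 biological replicates: antibody-treated SP, antibody-treated non-SP, untreated SP and untreated non-SP cells. Treatment was a monoclonal anti-mouse EpCAM antibody at 100 µg/ml for 48 h. Cells of every group were stained with Hoechst at 5 µg/ml for 90 min before sorting, and 200 ng of total RNA was labelled for each array. No control antibody is named in the labels, all cells are of 1 line, and where the replicates came from beyond "biological" is not stated, so p-values measure the spread between these samples.

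C2H2 zinc-finger proteins form the largest family of human transcription factors. Each finger folds around a zinc ion and contacts a short stretch of DNA, and fingers in tandem read a longer site. Many also carry a KRAB domain, which recruits TRIM28 and through it the methyltransferase SETDB1 and HP1 proteins, and so silences chromatin. KRAB zinc-finger genes arose by repeated duplication, lie mostly in clusters on chromosome 19, and many of their proteins bind transposable elements. Members outside the KRAB group act in ribosome quality control, splicing, SUMO transfer, histone-modifying complexes or development. Of the 187 genes, 85 lie on chromosome 19, 16 on chromosome 16, 14 on chromosome 1 and 13 on chromosome 7.

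Apart from the level limit, values are log2 signals of the deposited arrays after quantile normalisation of the 12 arrays together. The SP array and the non-SP array that share a treatment and a replicate number were taken as a pair, 6 in all. The labels do not state this pairing, which was judged from the values of these same arrays. The SP minus non-SP difference was tested on these pairs with limma across all genes. The sort could be checked on ABCG2, the efflux pump of the side population, which averaged 11.73 in antibody-treated SP and 11.21 in antibody-treated non-SP cells, and 11.74 in untreated SP and 11.31 in untreated non-SP cells. It was 0.47 higher in SP cells over the 6 pairs (limma, adjusted p = 0.00407). EPCAM was 0.25 higher (limma, adjusted p = 0.0497). All 9 A549 markers passed the level limit, with signals from 8.89 to 14.79. Of markers of other cells, 3 of 4 measured for leukocytes passed it (signals of all 4 from 3.76 to 7.18), 1 of 3 for endothelium (3.57 to 6.97) and 2 of 4 for fibroblasts (3.41 to 6.67). Of the leukocyte markers PTPRC was below the limit on every array, at 3.76 to 4.91. The 3 that passed were CD3E (6.43 to 7.09), CD14 (6.45 to 7.18) and ITGAM (5.77 to 6.71). Whether other cells were present was not tested. Signals of different probe sets are not comparable amounts, so these ranges are descriptions. Each array holds RNA of a sorted population, so fewer cells expressing a gene and less RNA per cell cannot be told apart.

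More of the zinc-finger genes were higher than lower in SP cells. Over the 6 pairs, 9 of the 187 rose in SP cells, 4.81%, where 0.969% of all genes tested did (limma, Benjamini-Hochberg adjusted p under 0.05). In the other direction 2 fell, 1.07%, against a background of 1.41%. In either direction 11 were called, where 2.38% of all genes were. The lower-numbered genes ZNF1 to ZNF399 leaned the same way: 11 of 149 rose (7.38%) and 2 fell (1.34%). At an unadjusted p under 0.05 the counts were 56 higher (29.9%, background 8.68%) and 6 lower (3.21%, background 7.67%). The shifts were small: the median difference was 0.04, the middle range of the genes ran from -0.04 to 0.16, and 123 of 187 lay above 0 (65.8%, against 52.5% of all genes). The median over all genes tested was 0.01, and that of ZNF1 to ZNF399 was 0.09, with 71.8% above 0. The families were not tested against each other. The genes named here are those that passed the test, those of smallest p, and members with well-described functions.

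The 11 calls rest on the pairing and on most of the pairs. None was called when the 12 arrays were treated as independent, when the prior variance followed the signal level, or without antibody-treated pairs 1 and 3. In these fits 0%, 0% and 0.191% of all genes tested were called, against 2.38% in the main fit, so the loss was not particular to the members. Leaving out a single pair changed both the count and the genes. Without antibody-treated pair 1, 2 or 3 there were 12, 1 or 5 member calls, of which 7, 1 and 4 were among the 11. The shares of all genes called were 2.82%, 0.546% and 0.826%. Without untreated pair 1, 2 or 3 there were 3, 7 or 2 member calls, all among the 11, with 1.11%, 1.3% and 0.567% of all genes called. ZNF823, ZNF879 and ZNF407 were not called whichever pair was left out.

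ZNF529, a KRAB zinc-finger gene, had the largest rise. It measured 8.91, 8.61 and 8.74 in antibody-treated SP cells, against 8.57, 8.11 and 8.26 in antibody-treated non-SP cells. In untreated SP cells it measured 9.05, 8.72 and 9.10, against 8.47, 8.47 and 8.05 in untreated non-SP cells. Every SP array lay above every non-SP array. The difference was 0.53 ± 0.09 (SE, 6 pairs; limma, adjusted p = 0.016), a 1.45-fold rise, and ranged from 0.25 to 1.04 over the pairs. A dimmer second probe set of the gene did not move with it: its mean difference was -0.01 and 3 of 6 pairs were higher in SP cells.

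ZNF567, another KRAB gene and a chromosome 19 neighbour of ZNF529, measured 9.36, 9.60 and 9.23 in antibody-treated SP cells, against 9.04, 9.05 and 8.90 in antibody-treated non-SP cells. The untreated values were 9.53, 9.45 and 9.54 in SP cells, against 9.12, 9.38 and 8.90 in non-SP cells. The SP arrays were the higher in every pair, but untreated non-SP replicate 2 overlapped the antibody-treated SP arrays. The difference was 0.39 ± 0.07 (SE, 6 pairs; limma, adjusted p = 0.0246), a 1.31-fold rise. Its 2 dimmer probe sets gave mean differences of 0.15, higher in SP cells in 5 of 6 pairs, and -0.04, higher in 4 of 6.

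ZNF766, also a KRAB gene on chromosome 19, was bright and tight. It measured 9.31, 9.44 and 9.19 in antibody-treated SP cells, against 9.05, 9.09 and 8.94 in antibody-treated non-SP cells. The untreated values were 9.22, 9.45 and 9.33 in SP cells, against 8.79, 9.21 and 8.86 in non-SP cells. Only untreated non-SP replicate 2 reached into the SP range. The rise was 0.33 ± 0.05 (SE, 6 pairs; limma, adjusted p = 0.016), and the pairs agreed closely, from 0.24 to 0.47.

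Of the other rises, ZNF680 on chromosome 7 rose by 0.44 ± 0.07 (SE; limma, adjusted p = 0.0189), with 7.15, 7.43 and 7.32 in antibody-treated SP cells against 6.96, 6.72 and 6.80 in antibody-treated non-SP cells. Untreated SP cells had 7.09, 7.29 and 7.16, against 6.85, 6.93 and 6.57 in untreated non-SP cells, so the fractions did not overlap. Its probe set carries the suffix _x_at, with which the manufacturer marks probes that can also match other transcripts, so paralogues cannot be separated from it. ZNF586, a KRAB gene near the end of chromosome 19, rose by 0.37 ± 0.07 (SE; limma, adjusted p = 0.0195).

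ZNF823 rose by 0.39 ± 0.08 (SE; limma, adjusted p = 0.0381), with pair differences from 0.10 to 0.73. ZNF658, whose protein binds a zinc-responsive element and represses zinc transporter genes, rose by 0.35 ± 0.07 (SE; limma, adjusted p = 0.031), with pair differences from 0.06 to 0.63. ZNF879 rose by 0.26 ± 0.06 (SE; limma, adjusted p = 0.0372), although its level differed widely between pairs, with 6.70 in antibody-treated SP replicate 3 and 4.99 in untreated non-SP replicate 1. ZNF407, a large non-KRAB protein that supports PPARG target genes in adipocytes, completed the 9 with a rise of 0.24 ± 0.05 (SE; limma, adjusted p = 0.0393). It was named after its values were seen, since the count would otherwise be left incomplete. All 4 were higher in SP cells in every pair.

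ZNF574 fell with the smallest p of the set. It measured 7.76, 7.57 and 7.90 in antibody-treated SP cells, against 8.03, 8.01 and 8.51 in antibody-treated non-SP cells. In untreated SP cells it measured 7.66, 7.89 and 7.98, against 8.07, 8.19 and 8.39 in untreated non-SP cells. The SP arrays all lay below the non-SP arrays. The fall was -0.41 ± 0.06 (SE, 6 pairs; limma, adjusted p = 0.00797), and the pair differences lay between -0.61 and -0.26. It was the 1 member still called whichever pair was left out (highest adjusted p 0.0484).

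ZNF503, a transcriptional repressor studied in forebrain and limb development and in mammary cells, fell by as much. It measured 9.44, 9.07 and 9.25 in antibody-treated SP cells, against 9.52, 9.38 and 9.71 in antibody-treated non-SP cells. The untreated values were 9.38, 9.33 and 8.99 in SP cells, against 10.02, 9.63 and 9.62 in non-SP cells. SP was lower in each pair, with overlap between pairs in the treated arrays. The difference was -0.41 ± 0.07 (SE, 6 pairs; limma, adjusted p = 0.0177). It was smallest, -0.08, in antibody-treated pair 1, and a dimmer probe set gave a mean difference of -0.05. No further member was called lower: ZNF428 (-0.26, limma, adjusted p = 0.111), ZNF512B (-0.17, 0.164) and ZNF462 (-0.27, 0.229) had the next smallest p. Each has a dimmer probe set of opposite sign: ZNF428 with 0.15 and all 6 pairs higher, ZNF512B with 0.03 and ZNF462 with 0.02, each with 4 of 6 higher.

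**Figure D1:**
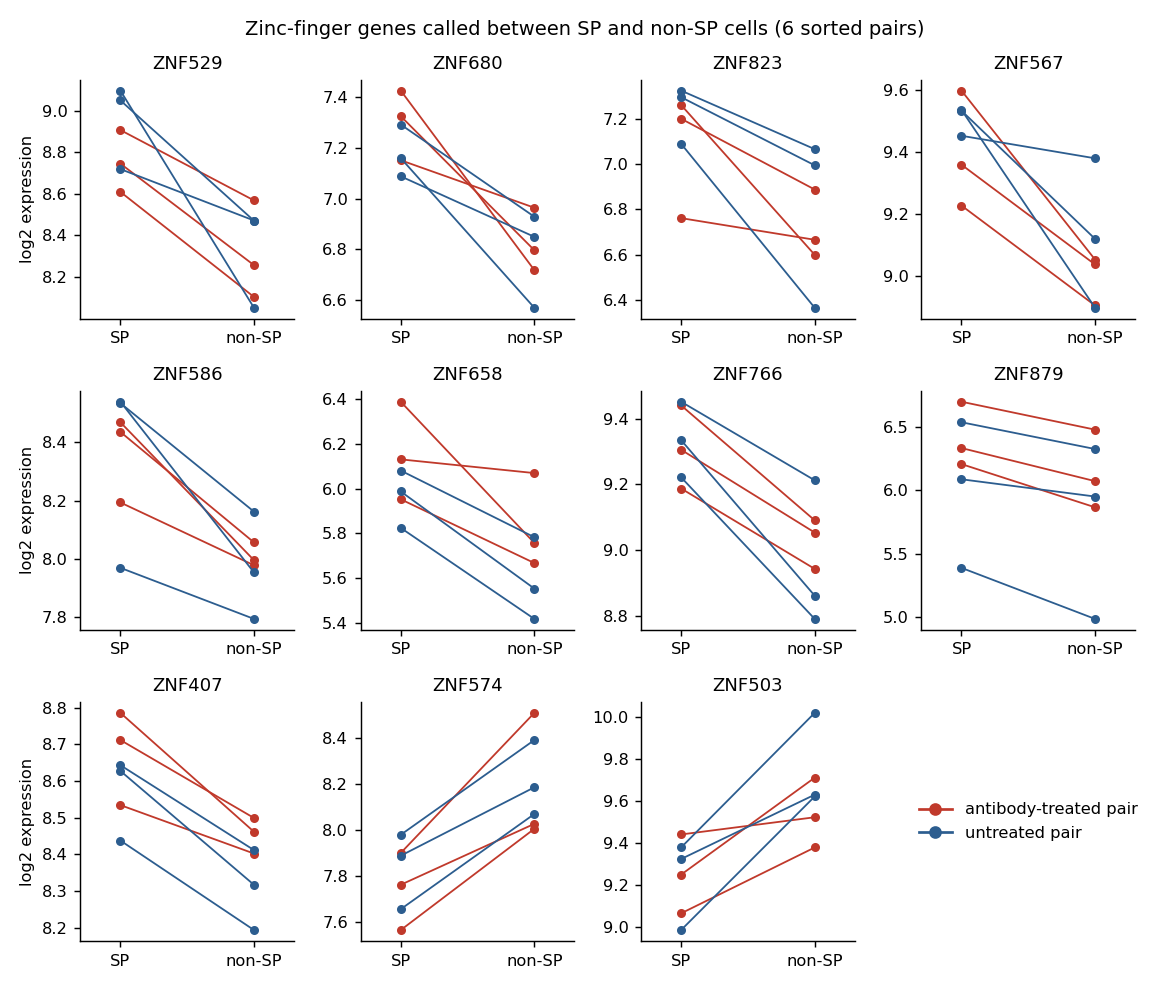
Log2 expression of the 11 called zinc-finger genes in SP cells (left in each panel) and non-SP cells (right). Each line joins the 2 arrays taken as a pair, red for antibody-treated and blue for untreated pairs. In the first 9 panels all 6 lines fall towards non-SP, and in ZNF574 and ZNF503 all 6 climb; vertical axes differ between panels and do not start at 0.

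The promoters of 5 of these genes are shown because the members moved mostly in 1 direction and because the 3 brightest chromosome 19 rises can be set beside both falls. Each line gives the 150 bases before the gene's start, read 5′ to 3′ on the gene's strand from RefSeq promoters of GRCh38.p14. They are at chr19:36605258-36605407 (minus strand), chr19:36666784-36666933 (plus), chr19:52269437-52269586 (plus), chr19:42068327-42068476 (plus) and chr10:75401917-75402066 (minus). Capitals mark matches, on either strand, to short motifs. The GC box of Sp and KLF factors was searched as GGGCGG. The ETS motif was CCGGAAG. For NRF1 the letters were GCGC, any 2 bases and GCGC again. The AP-1 motif was TGANTCA. The TATA box was TATAAA. The cyclic AMP response element (CRE) was TGACGTCA.
ZNF529: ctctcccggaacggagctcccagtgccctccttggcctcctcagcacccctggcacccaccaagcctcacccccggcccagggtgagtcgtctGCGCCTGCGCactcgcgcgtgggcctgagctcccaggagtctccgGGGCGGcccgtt
ZNF567: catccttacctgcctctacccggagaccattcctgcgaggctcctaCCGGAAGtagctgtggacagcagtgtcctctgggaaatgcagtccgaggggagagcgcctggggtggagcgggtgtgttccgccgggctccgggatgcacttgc
ZNF766: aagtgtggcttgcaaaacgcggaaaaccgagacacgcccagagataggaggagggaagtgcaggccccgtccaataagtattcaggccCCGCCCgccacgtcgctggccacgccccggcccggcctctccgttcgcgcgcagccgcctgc
ZNF574: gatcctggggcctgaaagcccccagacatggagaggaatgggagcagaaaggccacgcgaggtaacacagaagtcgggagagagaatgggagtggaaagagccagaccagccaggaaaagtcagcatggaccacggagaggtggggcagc
ZNF503: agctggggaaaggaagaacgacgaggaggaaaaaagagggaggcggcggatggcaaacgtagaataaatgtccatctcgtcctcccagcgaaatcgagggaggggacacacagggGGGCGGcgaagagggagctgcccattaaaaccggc
ZNF529 holds an NRF1 and a GC-box match, ZNF567 an ETS match, ZNF766 and ZNF503 a GC-box match each, and the ZNF574 window holds none of these letters. None of the matches shown overlap.

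Over 250 bases upstream, 158 of the 187 genes had a listed promoter. The ETS letters stood in 46 of them, 29.1%, against 14.4% of the promoters of all genes tested, and in 34.1% of those of ZNF1 to ZNF399. The NRF1 letters stood in 17.1%, against 12.7% of all, but in 9.09% of those of ZNF1 to ZNF399. GC-box letters were about as frequent as elsewhere, 61.4% against 63.7% of all. AP-1 (3.16% against 4.34%), TATA (3.8% against 6.17%) and CRE letters (1.9% against 2.75%) were rarer, in only 5, 6 and 3 members. In ZNF1 to ZNF399 these 3 stood in 5.3%, 2.27% and 5.3%. Of the 9 genes that rose, 4 had the ETS letters, and neither gene that fell did. The median SP minus non-SP difference was 0.03 over the 46 members with the ETS letters and 0.04 over the 112 without. It was 0.03 over the 97 with a GC box, of which 60 were higher in SP cells, and 0.10 over the 61 without, of which 45 were higher. These splits were not tested.

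The fraction difference of the set was seen in each pair. The median of the 187 genes was 0.09, 0.09 and 0.02 in antibody-treated pairs 1 to 3, and 0.12, 0.02 and 0.09 in untreated pairs 1 to 3. Medians over all genes were 0.02, 0.02 and -0.05 in the antibody-treated pairs, and 0.05, -0.01 and 0.01 in the untreated pairs. The zinc-finger median was above that of all genes in all 6 pairs, by 0.03 to 0.09. Between 100 and 132 of the 187 genes were higher in SP cells (53.5% to 70.6%), against 39.7% to 64.9% of all genes. Both shares were lowest in antibody-treated pair 3 and highest in untreated pair 1. In all 6 pairs 38 genes were higher (20.3%, background 6.34%) and 5 lower (2.67%, background 4.84%).

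RNA quality differed between some paired arrays. The log2 ratio of 3′ to 5′ GAPDH control probes, SP minus non-SP, was 0.54 in antibody-treated pair 1 and -0.38 in antibody-treated pair 3, and -0.11 to 0.30 in the others. For ACTB it was 1.86 and -2.09 in these 2 pairs, against -0.36 to 0.27. The excess of the zinc-finger median over that of all genes was 0.06 in both pairs. With the GAPDH ratio as a covariate, 12 members were called (6.42%, against 2.27% of all genes), the 11 among them.

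Members on chromosome 19 had the larger differences. The 85 genes there had a median difference of 0.13 and 66 were higher in SP cells (77.6%), while the 102 elsewhere had a median of 0.01 and 57 were higher (55.9%). On chromosome 19, 5 rose (ZNF529, ZNF823, ZNF567, ZNF586 and ZNF766) and 1 fell (ZNF574), and elsewhere 4 rose and 1 fell (ZNF503). Of all genes tested 0.969% rose and 1.41% fell. The adjusted calls were thus similar in number, among 85 genes on chromosome 19 and 102 elsewhere. At an unadjusted p under 0.05 (limma), 37 of the 85 were higher and 2 lower, against a background of 8.68% and 7.67%. Elsewhere 19 of the 102 were higher and 4 lower. Of the 38 members higher in all pairs, 24 lie among the 85 on chromosome 19 and 14 among the 102 elsewhere. Of all genes tested 6.34% were higher in all pairs. The chromosome 19 median was above 0 in all 6 pairs, from 0.06 to 0.17, and above that of the members elsewhere in all 6. The members elsewhere ranged from -0.03 to 0.12. The 884 genes of chromosome 19 with no ZNF symbol had a median of -0.02, with 42.0% higher, and 2 of them rose and 7 fell. The lower-numbered genes ZNF1 to ZNF399 showed medians of 0.14 for 49 genes on chromosome 19 and 0.07 for 100 elsewhere, but the share higher in SP cells was 69.4% on chromosome 19 and 73.0% elsewhere, the other way round from the members. These splits are descriptions without a test.

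**Figure D2:**
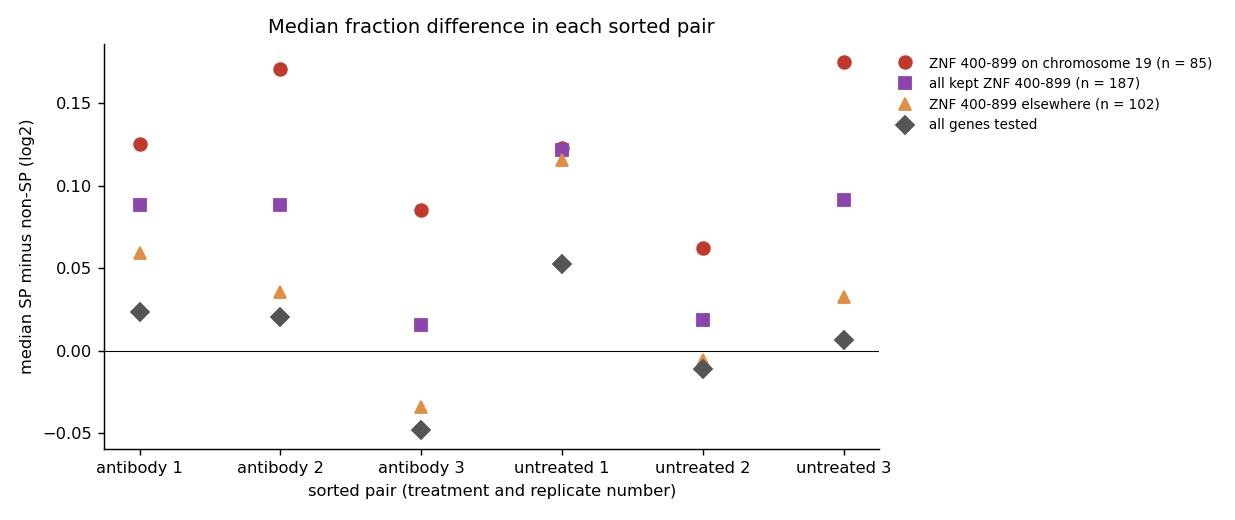
Median SP minus non-SP difference (log2, vertical axis) in each pair (horizontal axis). Circles are zinc-finger genes on chromosome 19, squares all 187, triangles those elsewhere and diamonds all genes tested. The circles lie highest in every pair, between 0.06 and 0.17, and the diamonds lowest.

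Along chromosome 19 the members lie in runs of neighbouring zinc-finger genes. A run here allows at most 2 other genes between neighbours, and the 6 runs with 5 or more members hold 58 of the 85. These runs were defined after the values had been seen. In the run from ZNF565 to ZNF573, 11 of 12 members were higher in SP cells, with a median of 0.21, and ZNF529 and ZNF567 rose. This run also holds ZNF420, whose KRAB protein restrains p53-dependent apoptosis, at 0.28 ± 0.06 (limma, adjusted p = 0.0506). Its exception, ZNF566, had -0.03 ± 0.13.

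The run from ZNF577 to ZNF331 had 8 of 9 members higher and a median of 0.19, with ZNF766 called. All 7 members of the run from ZNF627 to ZNF791 were higher, with a median of 0.15, and ZNF823 rose. In the run from ZNF264 to ZNF446, 16 of 19 were higher with a median of 0.09, and ZNF586 rose. The remaining runs did not share this: ZNF101 to ZNF254 had 3 of 5 higher and a median of 0.03, and ZNF579 to ZNF580 had 3 of 6 higher and a median of -0.02. Paralogues in a run are similar in sequence, so probe sets of neighbours may share transcripts and are not independent.

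**Figure D3:**
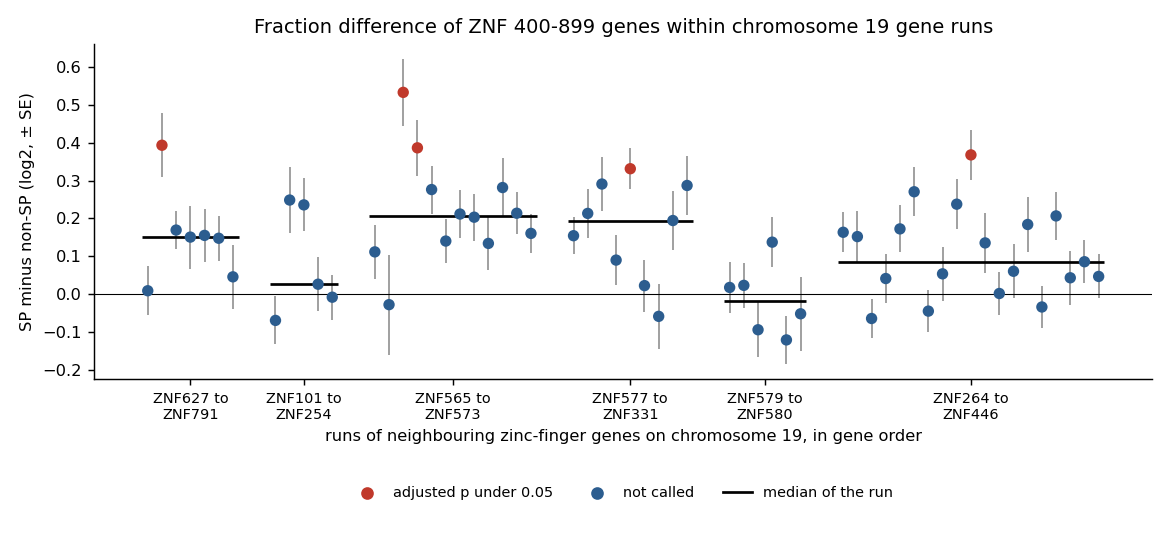
SP minus non-SP difference over the 6 pairs (log2, points with SE) of the 58 zinc-finger genes in 6 runs of neighbouring genes on chromosome 19, in gene order, red where called and blue where not, with a bar at each run's median. Points lie mostly above 0 in 4 runs, whose medians are 0.15, 0.21, 0.19 and 0.09, and around 0 in the runs ZNF101 to ZNF254 and ZNF579 to ZNF580.

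By function, none of the members in RNA and ribosome work was called (background 2.38% of all genes), and 2 of 5 were higher in SP cells. The lists by function are so short that at this background a lack of calls says little about them. ZNF598, the ubiquitin ligase that marks collided ribosomes, had -0.08 ± 0.06. ZNF622, which acts in maturation of the large ribosomal subunit, had 0.03 ± 0.06, and ZNF638, which recruits the HUSH complex to unintegrated retroviral DNA, 0.02 ± 0.05. ZNF593 had -0.06 ± 0.07 and the splicing factor ZNF830 -0.01 ± 0.08.

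Of 8 members in chromatin complexes, none was called (background 2.38%) and 5 were higher, but 3 came near the threshold. ZNF644, which brings the histone methyltransferases EHMT1 and EHMT2 to DNA, had 0.28 ± 0.07 (limma, adjusted p = 0.055) and was higher in 5 of 6 pairs. A dimmer probe set of ZNF644 gave 0.02 and was higher in 1 of 6. ZNF711, a partner of the demethylase PHF8, had 0.27 ± 0.07 (limma, adjusted p = 0.0712), and ZNF518B 0.25 ± 0.06 (limma, adjusted p = 0.0735), both higher in all 6 pairs. Of the ZMYND8-associated proteins, ZNF687 had 0.10 ± 0.05, ZNF532 0.01 ± 0.06 and ZNF592 -0.07 ± 0.05. The other 2 probe sets of ZNF592 gave 0.07 and 0.12, so its sign depends on the probe set. ZNF462 had -0.27 ± 0.10 and ZNF827 -0.14 ± 0.07. The dimmer probe sets of ZNF827 above the limit gave 0.04, 0.13 and 0.02, of opposite sign. ZNF410 was not analysed here.

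ZNF451, which extends SUMO chains and helps TDP2 resolve trapped topoisomerase, had 0.08 ± 0.07, and ZNF668 0.07 ± 0.07. Another ZNF451 probe set, about as bright (mean signal 8.87 against 8.90), gave -0.15 and was lower in SP cells in every pair. A dimmer ZNF451 set gave -0.03, so the sign of this gene depends on the probe set. Among genes known from differentiation and cancer, 5 of 8 passed the level limit and ZNF503 alone was called (background 2.38%). ZNF703, amplified in luminal breast cancers, had 0.28 ± 0.10 with pairs from -0.17 to 0.66 (limma, adjusted p = 0.19). ZNF516 had -0.08 ± 0.07, ZNF469 -0.04 ± 0.06 and ZNF652 -0.002 ± 0.07. A dimmer ZNF652 probe set (mean signal 7.98) gave -0.22 and was lower in SP cells in every pair. Its other sets above the limit gave -0.07 and -0.09, each higher in 3 of 6 pairs. ZNF521, ZNF423 and ZNF750 were below the limit.

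Among KRAB proteins with a known target, all 4 measured members were above 0 and none passed the test (background 2.38%). Besides ZNF420, ZNF445, which guards imprinted methylation, had 0.12 ± 0.06, ZNF746, which represses PPARGC1A, 0.08 ± 0.06, and ZNF587, which binds HERV-K elements, 0.06 ± 0.07. Both ZNF587 probe sets above the limit carry the suffix _x_at, so paralogues cannot be separated from it. ZNF417 and ZNF649 were below the limit. Of the 32 genes of the shared KRAB silencing machinery none was called (background 2.38%), 17 were higher and the median was 0.01. TRIM28 had -0.04 ± 0.07 (limma, adjusted p = 0.827), SETDB1 -0.02 ± 0.06 (0.881) and the NuRD helicase CHD4 -0.07 ± 0.06 (0.637).

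The 5 brightest members hardly differed between fractions. ZNF706 (-0.05 ± 0.06), ZNF638, ZNF507 (0.04 ± 0.05) and ZNF770 (0.03 ± 0.06) were not called, nor was ZNF664 (-0.13 ± 0.05; limma, adjusted p = 0.268), although SP cells had the lower value in every pair. When all genes were split by level into 3 equal parts, members of the low, middle and high part had medians of 0.05, 0.04 and 0.01, against 0.01, 0.00 and 0.01 over all genes of each part. At the dim end, ZNF624 had 0.38 ± 0.09 (limma, adjusted p = 0.0506) at a mean signal of 5.40.

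Where a gene had several probe sets above the limit, these did not always share a direction. Of the members, 102 had 1 such probe set and 85 more. Of the 117 further probe sets, 75 had the sign of the brightest. In ZNF428 the brightest set lay below 0 in each of the 6 pairs and the other lay above 0 in each. For ZNF721 the brightest probe set, an _x_at set, gave -0.08 ± 0.10 and was higher in 2 of 6 pairs, while its plain _at set was higher in SP cells in 6 of 6 pairs, with a mean difference of 0.31.

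The fraction difference was next read in each treatment. In the antibody-treated pairs no member was called (background 0.225% of all genes), and 32 were higher (background 4.51%) and 5 lower (background 6.17%) at an unadjusted p under 0.05. In the untreated pairs none was called either (background 0.0751%), with 39 higher (background 4.85%) and 3 lower (background 3.75%) unadjusted. The member medians were 0.05 in antibody-treated and 0.06 in untreated pairs. On chromosome 19 they were 0.09 in antibody-treated pairs, with 67 of 85 higher, and 0.11 in untreated pairs, with 67 of 85 higher.

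Whether the fraction difference itself changed with the antibody was tested as an interaction. No member was called, and no gene of all tested (limma, background 0%; 242 genes, 1.65%, at an unadjusted p under 0.05, of which 2 were members). ZNF430, a chromosome 19 KRAB gene, had the smallest p among members: the fraction difference was 0.52 larger in antibody-treated pairs (limma, unadjusted p = 0.0132). ZNF691 had -0.31 and ZNF844 0.21. The typical standard error of a member's interaction was 0.13, which sets the size that this comparison could resolve.

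Antibody and untreated cells were then compared over the means of the pairs, 3 against 3. No member was called, nor any gene (limma, background 0%; 214 genes, 1.46%, at an unadjusted p under 0.05, of which 2 were members, both lower). The member median was 0.00 and 93 of 187 lay above 0. Pair means did not overlap between antibody-treated and untreated cells for 9 members, 4.81%, where 4.44% of all genes did so, a share near the background. The typical standard error of a member was 0.14, against 0.06 for the fraction difference.

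ZNF721 had the smallest p, with pair means of 9.92, 9.89 and 10.07 in antibody-treated cells, against 10.18, 10.39 and 10.30 in untreated cells. The 3 treated means lay below the untreated ones. The difference was -0.33 ± 0.11 (SE; limma, unadjusted p = 0.0196, not called), measured with the same _x_at set, which can match other transcripts.

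ZNF566 had the largest antibody difference by size among the named genes. Its pair means were 6.49, 5.61 and 5.36 in antibody-treated cells, against 6.999, 6.83 and 6.14 in untreated cells. The groups overlapped, since treated pair 1 lay above untreated pair 3, and the difference was -0.84 ± 0.34 (SE; limma, unadjusted p = 0.0404, not called). It was -0.66 within SP and -1.02 within non-SP cells. ZNF837 went the other way, with 5.89, 6.09 and 6.34 in antibody-treated cells, against 5.85, 5.22 and 5.88 in untreated cells, a difference of 0.46 ± 0.21 (limma, unadjusted p = 0.0627).

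The remaining members of smallest p were ZNF853 (0.23), ZNF775 (0.26), ZNF585A (0.23) and ZNF691 (0.27), higher with antibody, and ZNF583 (-0.35), ZNF416 (-0.20) and ZNF606 (-0.24), lower. Of the 11 genes called between fractions, none was called for the antibody. ZNF529 had -0.11 ± 0.13, ZNF574 -0.07 ± 0.15 and ZNF503 -0.10 ± 0.14. Within single fractions no member was called in SP cells (1 at an unadjusted p under 0.05, background 1.3%) or in non-SP cells (4, background 1.65%).

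**Figure D4:**
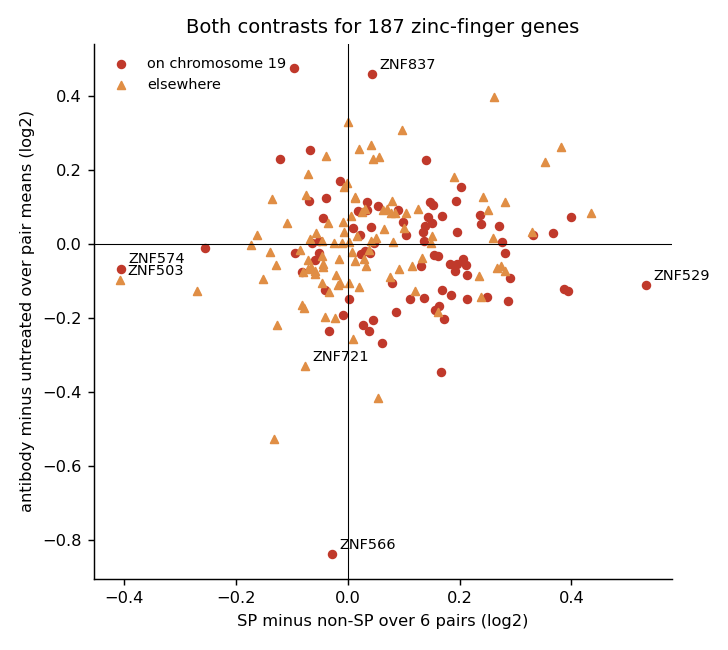
Antibody minus untreated difference over pair means (vertical axis, log2) against SP minus non-SP difference over 6 pairs (horizontal axis, log2) for the 187 zinc-finger genes, circles for chromosome 19 and triangles for other chromosomes. Points lean to the right of 0, with ZNF529 at 0.53 farthest right, and scatter evenly above and below 0, with ZNF566 at -0.84 lowest.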

How the data were processed

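Expression was measured on 12 Affymetrix arrays. The deposited log2 signals of each probe set were made by the authors with RMA, as the submitters' processing notes name it without a version; which arrays were processed together is not given in the sources used here. Deposited array medians ranged from 5.58 to 6.24 and were close within pairs, so all arrays were quantile-normalised together. Probe sets were named from the platform's probe table, and 29 that name a ZNF400 to ZNF899 gene with another gene were left out. The level limit and the choice of the brightest probe set for each gene used deposited means. Linear models were fitted in limma 3.58.1 (R 4.3.3) to the 6 within-pair differences, with a mean per treatment and 4 residual degrees of freedom, to 3 against 3 pair means for the antibody, and within each fraction. Benjamini-Hochberg adjustment covered 14649 genes. The labels do not state pairing, but deviations from group means correlated in every SP and non-SP pair (r 0.61 to 0.89). Correlations of SP with non-SP arrays of unlike number were not computed for comparison. Treated and untreated arrays of numbers 1, 2 and 3 correlated at 0.69, -0.18 and 0.62 in SP and 0.73, -0.13 and 0.59 in non-SP cells. Since not every number correlated, numbers were not used to pair treatments, and the block was an alternative. The code was tested on simulated data.

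Named genes were the 8 largest rises and 8 largest falls among calls of like sign in every pair, the 5 of smallest p in a direction with under 5 calls, 5 and 5 for the antibody, the 3 of smallest p for the interaction, the brightest and dimmest, and lists by function, with 32 KRAB cofactors. Members and lists were chosen with earlier results of these data known. Alternatives changed the normalisation, filter, probe set choice, pairing, variance prior and pairs used. Arrays measure relative signal, and their number limits the precision. Splits by KRAB domain and number of fingers were not made.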

Additional observations from a re-analysis of the deposited data

Results flagged for a closer look

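Among 58 sets of 6 pair differences tested for a value far from the others, 3 held such a pair, about what chance gives at 1 in 20. ZNF837 was -0.39 (SP minus non-SP) in antibody-treated pair 2, while its other pairs lay between 0.09 and 0.14. This is an _x_at set, and a dimmer probe set of ZNF837 gave 0.02 in that pair and -0.52 in antibody-treated pair 3. ZNF469, the gene of brittle cornea syndrome, was -0.34 in antibody-treated pair 3, with the others between -0.03 and 0.08. ZNF445 was 0.34 in untreated pair 3, with the others between 0.01 and 0.13. The 3 lie in different pairs.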

How the results depend on the processing

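The median fraction difference of the members stayed between 0.04 and 0.07 in all 16 alternative settings, and the chromosome 19 median lay above that of members elsewhere in each of them. The number of members called did not stay: with no replicate block (12 independent arrays), with a variance trend, and without antibody-treated pairs 1 and 3, it was 0 in either direction, against 11; of all genes 0%, 0% and 0.191% were called in these fits, against 2.38%. Leaving out 1 pair at a time gave 1 to 12 calls, of which 0 to 10 were higher and 1 to 2 lower, while 0.546% to 2.82% of all genes were called. In the antibody-treated pairs alone it gave 0 to 1 member calls, and averaging all kept probe sets of a gene gave 1. The share of all genes called in those pairs was not counted in these alternative fits, so these counts lack a background. In the main fit it was 0.225%. The antibody median of the members was 0.073 on the deposited values and -0.059 with each array centred on its median, against -0.0037 here, so its sign is not settled. With probe sets ending in plain _at, ZNF721 had an SP minus non-SP difference of 0.31 (limma, adjusted p = 0.0178), against -0.08 with its brightest set. For single named genes the fraction call kept its side of the threshold and its direction in 800 cases, weakened in 81, strengthened in 8 and reversed in 1, that of ZNF721; no antibody call changed, also with the replicate block (0 called). The chromosome 19 split was planned with earlier results of these data known, and its repeats over the alternative settings were not planned. At 6 pairs a member's typical standard error of 0.06 limits which shifts can be called.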
